A study of Mus musculus with 12 samples.

Results

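A set of 10 enzymes that make nitric oxide or prostaglandins, or that compete for the arginine nitric oxide is made from, were followed in ATDC5 cells with and without Ddx5 knockdown. They are Nos2, Gch1, Ass1, Arg1, Arg2, Ptgs1, Ptgs2, Ptges, Ptgis and Pla2g4a, chosen by their symbols, and all 10 were found among the 46731 genes of the expression table. ATDC5 is a mouse line derived from a teratocarcinoma that is used as a model of chondrocyte formation. The 12 libraries fall into 4 groups of 3. The shRNA-NC cells carry a control hairpin and the shRNA-Ddx5 cells a hairpin against Ddx5, an RNA helicase. Each line was sequenced without stimulation (in medium) and after 6 h with a cytokine pair (with cytokines), in which IL-1β was dosed at 5 ng/ml and TNF-α at 25 ng/ml. Both lines were made by lentiviral transduction, with expression of the hairpin from the U6 promoter and puromycin resistance, so the vector is shared by all 4 groups. The study describes the replicates of a group as biologically independent experiments, and the labels add nothing to this.

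Nitric oxide synthase 2, the product of Nos2, makes nitric oxide and citrulline from arginine and is controlled mainly through its transcription, which inflammatory cytokines induce. It needs the cofactor tetrahydrobiopterin, whose synthesis starts with GTP cyclohydrolase 1 (Gch1). Prostaglandin synthesis starts when cytosolic phospholipase A2 (Pla2g4a) frees arachidonate from membranes. The cyclooxygenases (Ptgs1 and Ptgs2) turn it into prostaglandin H2, and terminal synthases such as Ptges (prostaglandin E2) or Ptgis (prostacyclin) finish the route. In cartilage, nitric oxide and prostaglandin E2 are known as mediators that chondrocytes release under IL-1 and TNF.

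Levels are given as FPKM, the fragments on a gene scaled by its length and by a library denominator, and fragments are the whole numbers of read pairs recovered from them. Each library held 14119199 to 19276520 fragments on genes. Differences are on the log2(FPKM + 1) scale, which understates changes at low levels, with adjusted p-values from limma over 12368 genes that reached 1 FPKM in at least 3 libraries. A difference was called where its adjusted p was under 0.05. Ddx5 itself was at 294 to 337 FPKM in shRNA-NC cells in medium and at 90.7 to 118 FPKM in shRNA-Ddx5 cells, and with cytokines at 301 to 327 and 93.6 to 104 FPKM, which left 32.3% and 32.1% of the control mean. Of 12 chondrocyte markers 4 reached 1 FPKM in any library. Sox9 and Col2a1, which define the lineage, were among them, Acan averaged at most 0.0243 FPKM in a group and Cnmd was at 0 in all 12 libraries. The summed marker level was 40.1 to 45.2 and 31.6 to 34.3 FPKM in medium (shRNA-NC and shRNA-Ddx5) and 13.1 to 18.3 and 10.6 to 10.7 FPKM with cytokines. Single markers differed in direction. With knockdown in medium Col2a1 fell by 2.80 (adjusted p = 5.92e-06), Col11a1 rose by 1.601 (adjusted p = 2.31e-06) from 0.897 to 4.78 FPKM, and the difference of Sox9 was -0.19 (adjusted p = 0.0947). The part of these shifts in the values below was not tested, and in bulk RNA fewer cells of a kind and less RNA per cell cannot be told apart.

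Of the 10 members 6 passed the filter and 4 did not. Gch1, Ptgs2 and Pla2g4a reached 1 FPKM in all 12 libraries. Nos2 did so in the 6 libraries with cytokines, Arg2 in 4 and Ptges in 3 libraries, all of the latter 3 being shRNA-Ddx5 cells with cytokines. These last genes entered the test through the groups where they were high, so the number of members called is a description of the list and not evidence about it. Ptgs1 reached 1 FPKM in 2 libraries only and was fitted without the filter over 27209 genes, a choice made after its values were seen. Ass1, Arg1 and Ptgis reached at most 0.2001 FPKM in any library.

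**Figure D1:**
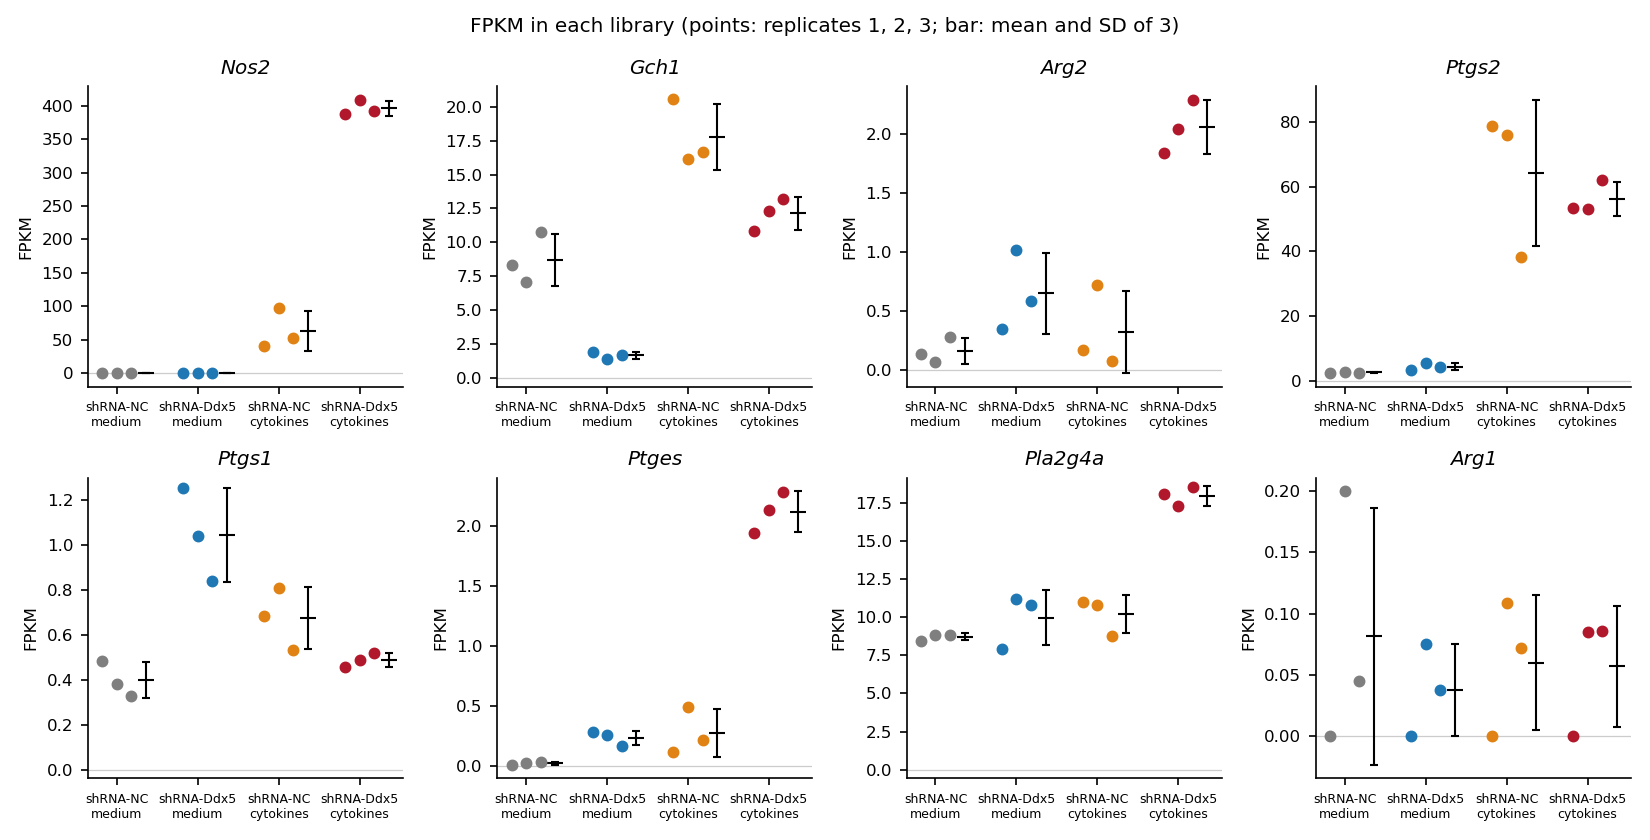
Level of 8 of the 10 enzymes in FPKM (linear vertical axes that differ between panels) in each of the 12 libraries. Points are replicates 1, 2 and 3 and the black bars give the mean and SD of 3. Nos2, Arg2, Ptges and Pla2g4a were highest in shRNA-Ddx5 cells with cytokines, Gch1 was lowest in shRNA-Ddx5 cells in medium, and the Ptgs2 libraries of both lines overlapped with cytokines.

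Promoter sequences are shown for 3 of the enzymes that behaved differently: Gch1, which was lower in shRNA-Ddx5 cells in both media, Ptgs2, which the cytokines induced to overlapping levels in both lines, and Ptges, which reached 1 FPKM only in stimulated shRNA-Ddx5 cells. The RefSeq promoter table (build GRCm38.p6) held an entry for 6 of the 10 members, and Nos2, Arg1, Arg2 and Ptgis had none. Each line gives the 250 bases before the annotated start of transcription, 5′ to 3′ on the gene's strand. The Gch1 stretch is chr14:47189414-47189663 (minus strand), that of Ptgs2 chr1:150099781-150100030 (plus strand) and that of Ptges chr2:30903298-30903547 (minus strand). Capitals mark matches to any of 7 motifs searched on both strands.
Gch1: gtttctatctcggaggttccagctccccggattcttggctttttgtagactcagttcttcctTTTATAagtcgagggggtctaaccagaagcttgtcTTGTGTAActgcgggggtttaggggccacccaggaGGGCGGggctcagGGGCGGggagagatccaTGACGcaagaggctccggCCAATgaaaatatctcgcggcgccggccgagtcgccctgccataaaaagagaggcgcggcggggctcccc
Ptgs2: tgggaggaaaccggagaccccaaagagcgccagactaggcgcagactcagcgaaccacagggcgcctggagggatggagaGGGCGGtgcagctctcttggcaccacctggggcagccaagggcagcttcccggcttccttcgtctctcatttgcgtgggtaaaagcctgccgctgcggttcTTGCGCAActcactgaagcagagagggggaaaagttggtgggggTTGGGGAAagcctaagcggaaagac
Ptges: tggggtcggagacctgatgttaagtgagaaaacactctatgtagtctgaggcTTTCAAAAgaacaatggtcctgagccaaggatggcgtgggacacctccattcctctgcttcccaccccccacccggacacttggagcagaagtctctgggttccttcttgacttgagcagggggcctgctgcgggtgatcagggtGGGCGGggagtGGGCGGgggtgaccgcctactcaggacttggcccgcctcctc

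The motifs were a CRE half-site (TGACG), a C/EBP site (TTNNGNAA), an E-box (CACGTG), a GC box (GGGCGG), an NF-kB site (GGG, then 4 bases of any kind, then TCC), a CCAAT box (CCAAT) and a TATA box (TATAAA), and no matches overlap in the 3 stretches shown. The Ptgs2 stretch holds C/EBP matches 69 to 62 and 25 to 18 bases before the start and a GC box 170 to 165 bases before it. The Ptges stretch holds a pair of GC boxes, at 53 to 48 and 42 to 37 bases, and a C/EBP match at 198 to 191 bases. The Gch1 stretch holds 5 kinds of match: GC boxes at 118 to 113 and 105 to 100 bases, a CRE half-site at 88 to 84 bases, a CCAAT box at 70 to 66 bases, a C/EBP match at 153 to 146 bases and a TATA box at 188 to 183 bases, far from the usual place of such a box. The search took exact letters only, so the near match cataaa, closer to the start of Gch1, was not marked. Of all 32851 promoters in the table, 36.8% hold a C/EBP match, 32.7% a GC box, 17.8% a CRE half-site, 33.8% a CCAAT box and 12.4% a TATA box in the same window, so none of these matches is rare. The E-box (6.02% of promoters) and the NF-kB letters (16.5%) were not found in these 3 stretches, which says nothing on binding outside the window or at other letters. A stretch of 4 runs of 3 or more G with gaps of 1 to 7 bases on either strand was found in the Gch1, Ptges and Ass1 promoters and not in those of Ptgs2, Ptgs1 and Pla2g4a (both of its entries), against 16.7% of all promoters. A match is a description of letters and not a site.

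The first question was how the synthase of inducible nitric oxide responded. In shRNA-NC cells in medium Nos2 had 0, 0 and 1 fragment, and in shRNA-Ddx5 cells 6, 10 and 16 fragments, which is 0.0849, 0.129 and 0.207 FPKM. With cytokines it was at 40.3, 97.2 and 52.1 FPKM in shRNA-NC cells and at 388, 409 and 392 FPKM in shRNA-Ddx5 cells. No group overlapped with another, as in 53.5% of all tested genes for the knockdown in medium and 61.6% with cytokines, and in 45.7% and 47.3% for the cytokines in shRNA-NC and shRNA-Ddx5 cells. Nos2 lies at chromosome 11, 78811613 to 78851052, plus strand (GRCm39, gene ID 18126).

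The cytokines raised Nos2 in both lines, by 5.90 ± 0.23 (SE) on the log2 scale in shRNA-NC cells (adjusted p = 1.15e-08) and by 8.45 ± 0.23 in shRNA-Ddx5 cells (adjusted p = 4.44e-10). These were the changes of rank 8 and rank 2 by size among 12368 genes. In shRNA-Ddx5 cells the ratio of pooled fragments was 2794 (95% counting interval 1979 to 4085). In shRNA-NC cells it rested on 1 fragment and was 15392 (2762 to 608003). With cytokines the knockdown raised Nos2 by 2.73 ± 0.23 (adjusted p = 5.91e-06), from a mean of 63.2 ± 30.02 to 396 ± 11.1 FPKM (SD, n = 3), a ratio of 6.27. Replicate 2 of the stimulated shRNA-NC cells stood above the others, and without it the difference was 3.08 (adjusted p = 3.22e-08). This was not particular to Nos2. That library was the highest of its group in 54.6% of the 2906 genes that the knockdown raised with cytokines. It was the lowest in 52.8% of the 2739 genes lowered. Another library stood out as much. Replicate 1 of shRNA-Ddx5 cells in medium was highest of its group in 54.7% of those raised and lowest in 50.9% of those lowered. The genes were called from these same libraries.

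Macrophages are a common source of Nos2. Of 13 macrophage markers, 3 reached 1 FPKM in any library, and 4 (Ptprc, Tyrobp, C1qa and C1qb) were at 0 in all 12 libraries. The 13 macrophage markers summed to 5.30 to 5.89 and 6.36 to 7.72 FPKM in medium and to 8.36 to 10.8 and 11.99 to 12.7 FPKM with cytokines, mostly from Cd14 and Cd68. Other markers of the list were low but not at 0, and below the filter: Lyz2 averaged 0.0518 and 0.934 FPKM in medium (shRNA-NC and shRNA-Ddx5) and 0.0504 and 0.569 FPKM with cytokines, and Csf1r 0.0887 and 0.381 FPKM, then 0.0327 and 0.267 FPKM. The part of these markers in the Nos2 values was not tested. Cd14, a co-receptor for lipopolysaccharide, averaged 7.17 FPKM in stimulated shRNA-NC and 9.50 FPKM in stimulated shRNA-Ddx5 cells.

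In medium the knockdown difference of Nos2 was 0.18 ± 0.23 (adjusted p = 0.551). The SE is shared with the other groups, and without replicate 2 of the stimulated shRNA-NC cells it was 0.094 (adjusted p = 0.143). The pooled fragments were 32 against 1, a ratio of 34.1 with a counting interval of 5.69 to 1388. With a pseudocount of 0.1 the difference was 1.16 (adjusted p = 0.00496), and with voom, which weights the recovered fragments by their precision, 3.97 (adjusted p = 0.0755).

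For Gch1 the knockdown difference had the opposite sign to that of Nos2, while the cytokine differences had the same sign. Gch1, the rate-limiting enzyme of tetrahydrobiopterin synthesis, was at 8.30, 7.05 and 10.8 FPKM in shRNA-NC cells in medium and at 1.95, 1.44 and 1.70 FPKM in shRNA-Ddx5 cells. With cytokines it was at 20.6, 16.1 and 16.6 FPKM in shRNA-NC cells and at 10.9, 12.3 and 13.2 FPKM in shRNA-Ddx5 cells. The lines did not overlap in either medium, and the stimulated shRNA-Ddx5 cells lay just above unstimulated shRNA-NC cells. Gch1 lies at chromosome 14, 47391352 to 47426870, minus strand (gene ID 14528).

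Knockdown lowered Gch1 by a log2 difference of -1.83 ± 0.14 in medium (adjusted p = 3.85e-06), to 19.5% of the control mean, and it was the gene of rank 95 by size of change. It was the 1 called member among the 6 tested there, against 47% of all genes called (25.3% upward and 21.7% downward). With cytokines the difference was -0.51 ± 0.14 (adjusted p = 0.0132), which left 68.3% of the control mean. That call was lost without replicate 1 of the stimulated shRNA-NC cells (-0.41, adjusted p = 0.0529) and without replicate 1 of the stimulated shRNA-Ddx5 cells (-0.44, adjusted p = 0.0562). The cytokines raised Gch1 in both lines, by 0.96 ± 0.14 in shRNA-NC cells (adjusted p = 0.000459) and by 2.28 ± 0.14 in shRNA-Ddx5 cells (adjusted p = 3.83e-07), which is a ratio of 2.04 and 7.15 of the means.

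The balance of synthase and cofactor enzyme differed between the lines. The ratio of Nos2 FPKM to Gch1 FPKM with cytokines was 1.96, 6.03 and 3.14 in shRNA-NC cells and 35.8, 33.2 and 29.7 in shRNA-Ddx5 cells. Even the highest of the control libraries was below every knockdown library. No test was run on this ratio. The ratio is of RNA levels and does not measure enzyme or cofactor.

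**Figure D2:**
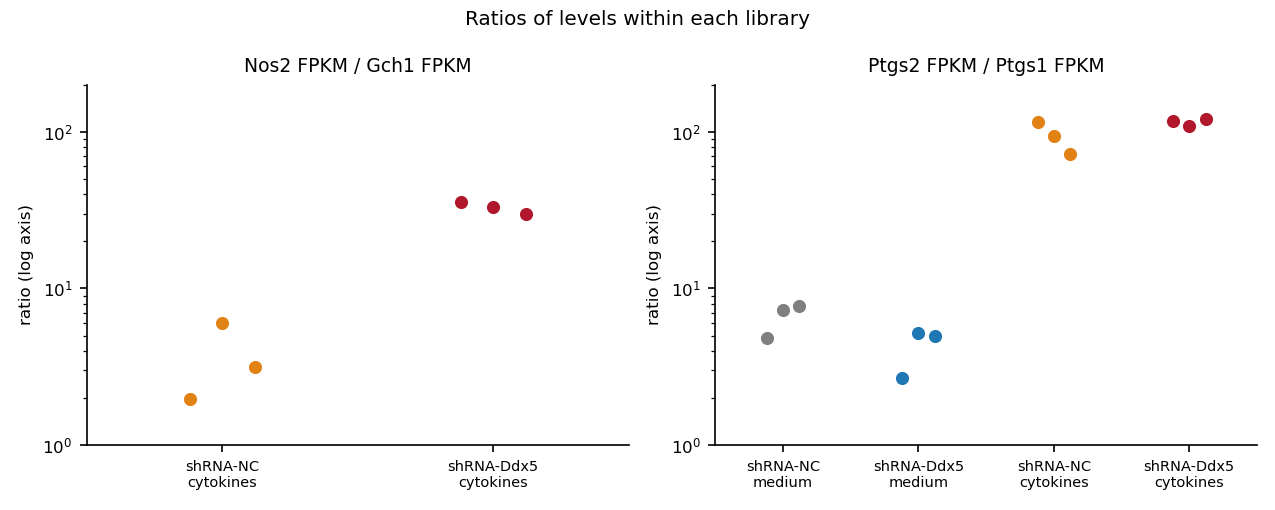
Ratios of FPKM values within each library on logarithmic vertical axes, with each point 1 library. Left, Nos2 over Gch1 in the 6 libraries with cytokines (1.96 to 6.03 in shRNA-NC and 29.7 to 35.8 in shRNA-Ddx5 cells). Right, Ptgs2 over Ptgs1 in all 12 libraries.

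The enzymes around arginine were scarce. Ass1, which rebuilds arginine from citrulline, had 1, 2 and 1 fragments in stimulated shRNA-NC cells and 0 in all other libraries, where 3 fragments would be 0.0892 to 0.122 FPKM. Arginase 1 (Arg1), which turns arginine into ornithine and urea, had 0 to 6 fragments in a library and at most 7 in a group. Neither level can be compared between groups at this depth. Intervals and floors in fragments cover counting error only.

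Arg2, the mitochondrial arginase, was the arginase with a measurable level. It had 4, 2 and 6 fragments in shRNA-NC cells in medium and 8, 26 and 15 in shRNA-Ddx5 cells, and 4, 19 and 2 fragments with cytokines in shRNA-NC cells. In stimulated shRNA-Ddx5 cells it had 43, 46 and 51 fragments, or 1.84, 2.04 and 2.29 FPKM, above every other library. Among stimulated cells the knockdown raised Arg2 by 1.24 ± 0.19 (adjusted p = 0.000299), and the pooled ratio was 6.30 (counting interval 4.10 to 10.1). In shRNA-Ddx5 cells the cytokines raised it by 0.91 ± 0.19 (adjusted p = 0.00398). Arg2 lies at chromosome 12, 79177562 to 79203075, plus strand (gene ID 11847), and Vti1b (at most 10.5 FPKM) overlaps it on the minus strand. The strandedness of the counts is not given in the sources used here, so fragments of the pair could be mixed where their exons meet.

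In medium the Arg2 groups did not overlap either, with 49 against 12 pooled fragments and a ratio of 4.35 (2.28 to 8.98). The difference of 0.49 ± 0.19 (adjusted p = 0.0505) missed the threshold. It passed without replicate 1 of shRNA-Ddx5 cells in medium (0.63, adjusted p = 0.0264), and without replicate 2 or 3 of the stimulated shRNA-NC cells (adjusted p = 0.02003 and 0.0451). Over all fits without 1 library it ranged from 0.33 to 0.63, with adjusted p up to 0.177. In shRNA-NC cells the cytokine difference was 0.16 ± 0.19 (adjusted p = 0.548), and it was -0.049 without replicate 2, the library with 19 fragments.

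On the prostaglandin side, Ptgs2 was the tested member that passed the threshold for the cytokines in both lines in the main fit. Cyclooxygenase 2, its product, is the inducible form of the enzyme. Ptgs2 was at 2.35, 2.78 and 2.51 FPKM in shRNA-NC cells in medium and at 3.37, 5.43 and 4.18 FPKM in shRNA-Ddx5 cells. With cytokines it was at 78.8, 75.9 and 38.2 FPKM in shRNA-NC cells and at 53.4, 53.0 and 62.1 FPKM in shRNA-Ddx5 cells. The lines were apart in medium and overlapped with cytokines, where the control libraries spread over a wider range. Ptgs2 lies at chromosome 1, 149975782 to 149983985, plus strand (gene ID 19225).

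The cytokines raised Ptgs2 by 4.13 ± 0.23 in shRNA-NC cells (adjusted p = 2.23e-07, ratio 25.3 of the means) and by 3.44 ± 0.23 in shRNA-Ddx5 cells (adjusted p = 7.26e-07, ratio 13.0). With cytokines the knockdown difference was -0.13 ± 0.23 (95% interval -0.64 to 0.39, adjusted p = 0.691), an interval that covers a moderate rise as well as a moderate fall. It turned to 0.054 and 0.027 without replicates 1 and 2 of the stimulated shRNA-NC cells, and without replicate 3, the lowest library, it was -0.46 (adjusted p = 0.0307). In medium the difference was 0.57 ± 0.23 (adjusted p = 0.0655), a ratio of 1.70 of the means. It passed the threshold without replicate 1 of shRNA-Ddx5 cells in medium (0.70, adjusted p = 0.0495) and without replicate 3 of the stimulated shRNA-NC cells (0.57, adjusted p = 0.00543). Over all fits without 1 library it ranged from 0.43 to 0.70, with adjusted p up to 0.199.

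The constitutive cyclooxygenase gene Ptgs1 had a different pattern. It had 49, 38 and 24 fragments in shRNA-NC cells in medium and 101, 92 and 74 in shRNA-Ddx5 cells, and with cytokines 56, 74 and 49 fragments in shRNA-NC cells and 37, 38 and 40 in shRNA-Ddx5 cells. In FPKM the group means were 0.398 ± 0.0807, 1.04 ± 0.208, 0.674 ± 0.137 and 0.487 ± 0.0309 (SD, n = 3) in that order. Unstimulated shRNA-Ddx5 cells were above the other 3 groups with no overlap.

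Fitted without the filter, knockdown raised Ptgs1 in medium by 0.54 ± 0.090 (adjusted p = 0.00176), against 23.1% of all genes called in that fit. In shRNA-Ddx5 cells the cytokines lowered it by a log2 difference of -0.45 ± 0.090 (adjusted p = 0.00794, 13.1% of all genes called). The knockdown difference with cytokines was -0.17 ± 0.090 (adjusted p = 0.249, 21.8% of all genes called) and the cytokine difference in shRNA-NC cells 0.26 ± 0.090 (adjusted p = 0.0896, 14.7% called), and the interaction of knockdown and cytokines was -0.71 ± 0.13 (adjusted p = 0.0145, 3.67% of all genes called). Ptgs1 lies at chromosome 2, 36106758 to 36142287, plus strand (gene ID 19224).

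The 2 cyclooxygenases can be set side by side per length. Ptgs2 FPKM was 4.85 to 7.69 times that of Ptgs1 in shRNA-NC and 2.69 to 5.22 times in shRNA-Ddx5 cells in medium. With cytokines it was 71.9 to 115 times in shRNA-NC and 109 to 120 times in shRNA-Ddx5 cells. The plot of ratios within libraries shows the stimulated lines overlapping on this measure.

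Upstream, Pla2g4a was present in every library. It was at 8.46, 8.83 and 8.88 FPKM in shRNA-NC cells in medium and at 7.95, 11.2 and 10.8 FPKM in shRNA-Ddx5 cells, and with cytokines at 11.01, 10.8 and 8.77 FPKM in shRNA-NC cells. In stimulated shRNA-Ddx5 cells it was at 18.1, 17.3 and 18.6 FPKM, above all other libraries, while the other 3 groups overlapped. The knockdown raised it with cytokines by 0.77 ± 0.12 (adjusted p = 0.000360) and the cytokines raised it in shRNA-Ddx5 cells by 0.80 ± 0.12 (adjusted p = 0.000409). In shRNA-NC cells the cytokine difference was 0.20 ± 0.12 (adjusted p = 0.220). The knockdown difference in medium was 0.16 ± 0.12 (adjusted p = 0.281), and it was 0.31 (adjusted p = 0.0254) without replicate 1 of shRNA-Ddx5 cells in medium. Over all fits without 1 library it ranged from 0.080 to 0.31, with adjusted p up to 0.631. Pla2g4a lies at chromosome 1, 149705369 to 149837041, minus strand (gene ID 18783).

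Downstream, Ptges, the microsomal synthase that makes prostaglandin E2 and is usually induced together with Ptgs2, was nearly silent outside stimulated shRNA-Ddx5 cells. It had 1, 2 and 2 fragments in shRNA-NC cells in medium, 17, 17 and 11 in shRNA-Ddx5 cells, and 7, 34 and 15 with cytokines in shRNA-NC cells. In stimulated shRNA-Ddx5 cells it had 117, 124 and 131 fragments, or 1.94, 2.14 and 2.28 FPKM. This group stood apart from all others, and even there Ptges was far below Ptgs2. With cytokines the knockdown raised it by 1.30 ± 0.11 (adjusted p = 8.02e-06), a pooled ratio of 7.48 (5.63 to 10.1). In shRNA-Ddx5 cells the cytokines raised it by 1.34 ± 0.11 (adjusted p = 5.08e-06), a pooled ratio of 9.01 (6.60 to 12.6).

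At the lower levels the direction of Ptges was the same, and the calls changed with the scale and with single libraries. The knockdown difference in medium was 0.27 ± 0.11 (adjusted p = 0.0745) with a pooled ratio of 9.59 (3.82 to 30.9), and the cytokine difference in shRNA-NC cells was 0.31 ± 0.11 (adjusted p = 0.0598) with a ratio of 11.6 (4.67 to 37.0). The first passed without replicates 1 or 2 of the stimulated shRNA-NC cells (adjusted p = 0.0484 and 0.0322), and the second without replicate 1 of that group (0.40, adjusted p = 0.0246). Over all fits without 1 library their adjusted p reached 0.166 and 0.194. With voom both passed, at 2.95 (adjusted p = 0.00303) and 3.00 (adjusted p = 0.00400). Ptges lies at chromosome 2, 30779483 to 30793309, minus strand (gene ID 64292). An unnamed locus, Gm52550, overlaps it on the other strand at no more than 0.700 FPKM. Prostacyclin synthase (Ptgis) had at most 1 fragment in a library, at or under the floor of 3 fragments in every group.

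Across the 6 tested members, the knockdown with cytokines raised 4 (Nos2, Arg2, Ptges and Pla2g4a) and lowered Gch1, against 45.6% of all genes called (23.5% upward and 22.1% downward). The cytokines raised 3 in shRNA-NC cells (Nos2, Gch1 and Ptgs2; 33.8% of all genes called, 18.6% upward and 15.2% downward) and all 6 in shRNA-Ddx5 cells (27% of all genes called, 13.5% in each direction). Nos2, Arg2 and Ptges entered the test through groups where they were high, so these counts describe the list and are not evidence about it. The comparisons of 1 medium or 1 line share libraries, so the members' values in them are not independent of each other.

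**Figure D3:**
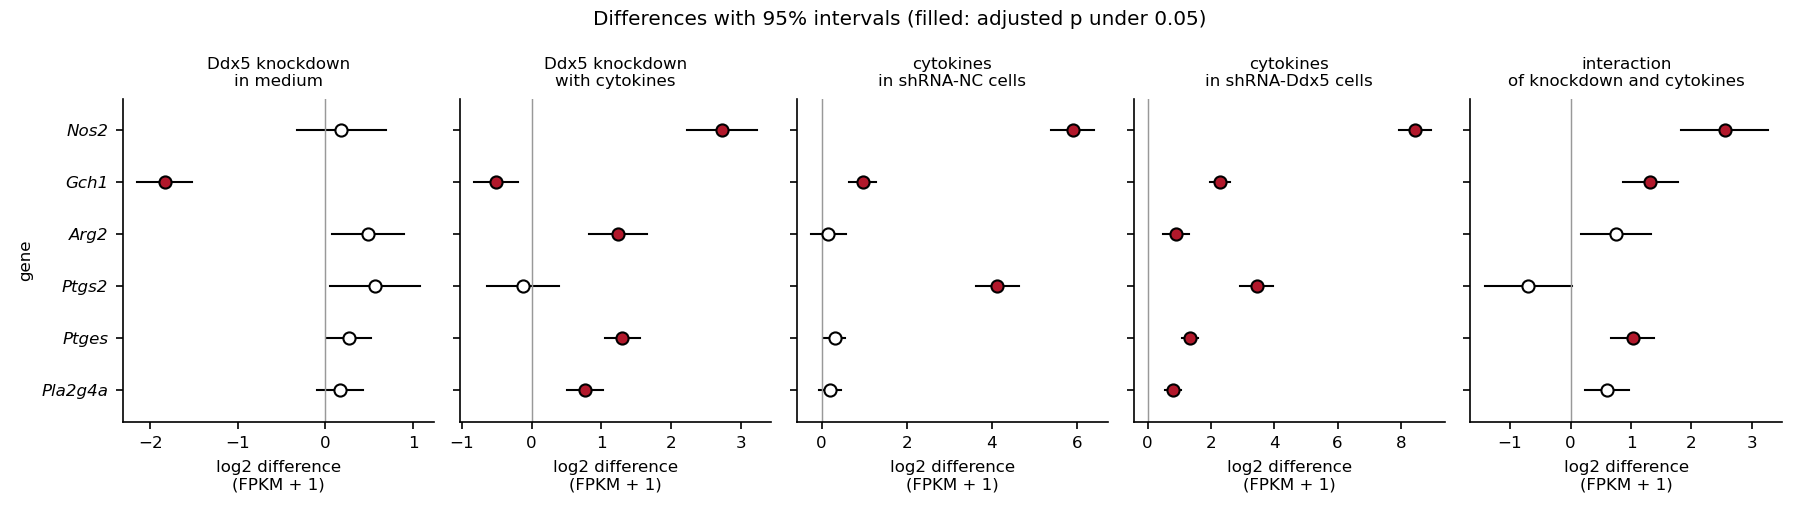
Log2 differences of FPKM + 1 (horizontal axes, which differ between panels) of the 6 tested enzymes in the 5 comparisons, with 95% intervals from limma. Filled points have an adjusted p under 0.05. Gch1 alone is filled for the knockdown in medium, at -1.83, and all 6 are filled for the cytokines in shRNA-Ddx5 cells.

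The order of levels changed accordingly. In shRNA-NC cells in medium Pla2g4a (8.72 FPKM) and Gch1 (8.71 FPKM) led and overlapped, followed by Ptgs2 (2.55 FPKM). In shRNA-Ddx5 cells in medium Gch1 fell behind Ptgs2, and the order was Pla2g4a (9.99 FPKM), Ptgs2 (4.32 FPKM) and Gch1 (1.70 FPKM), each apart from the next. With cytokines Ptgs2 (64.3 FPKM) and Nos2 (63.2 FPKM) led in shRNA-NC cells with overlapping values. In shRNA-Ddx5 cells Nos2 (396 FPKM) led alone, ahead of Ptgs2 (56.2 FPKM), Pla2g4a (18.01 FPKM) and Gch1 (12.1 FPKM).

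Whether the knockdown difference depended on the cytokines was tested by the interaction, which called 8.21% of all genes (3.46% upward and 4.75% downward). It passed for Nos2 (2.55 ± 0.33, adjusted p = 0.000847), Gch1 (1.32 ± 0.20, adjusted p = 0.00270) and Ptges (1.03 ± 0.16, adjusted p = 0.00313). It did not pass for Pla2g4a (0.60 ± 0.17, adjusted p = 0.0504), Arg2 (0.75 ± 0.26, adjusted p = 0.110) and Ptgs2 (-0.70 ± 0.33, adjusted p = 0.232). Single libraries moved the last 3 past the threshold, and scaling to the sum of fragments called 4 members upward, against 3 in the main fit. Pla2g4a passed without replicate 2 of shRNA-Ddx5 cells in medium (0.69, adjusted p = 0.0350), Arg2 without replicate 2 of the stimulated shRNA-NC cells (0.96, adjusted p = 0.0249), and Ptgs2 without replicate 3 of that group (-1.03, adjusted p = 0.0143). In other fits without 1 library the adjusted p of Pla2g4a, Arg2 and Ptgs2 reached 0.119, 0.226 and 0.420.

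The 3 called interactions differ in how they depend on the scale. For Gch1 the value was 1.74 (adjusted p = 0.00179) with a pseudocount of 0.1 and 1.79 (adjusted p = 0.00126) with voom, so a larger loss in medium than with cytokines held on each scale. For Nos2 the interaction was 1.58 (adjusted p = 0.0357) with a pseudocount of 0.1 and -1.22 ± 1.76 (adjusted p = 0.732) with voom. As a ratio, the knockdown changed Nos2 34.1-fold in medium (on 1 control fragment) and 6.19-fold with cytokines (6.08 to 6.30). The added amount of Nos2 RNA was far larger with cytokines, and the relative change cannot be ranked between media at this depth. For Ptges the interaction was 1.28 (adjusted p = 0.196) with a pseudocount of 0.1 and 0.16 ± 0.77 (adjusted p = 0.932) with voom. The pooled ratios of 9.59 and 7.48 have overlapping counting intervals, which also leave out the spread between libraries.

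**Figure D4:**
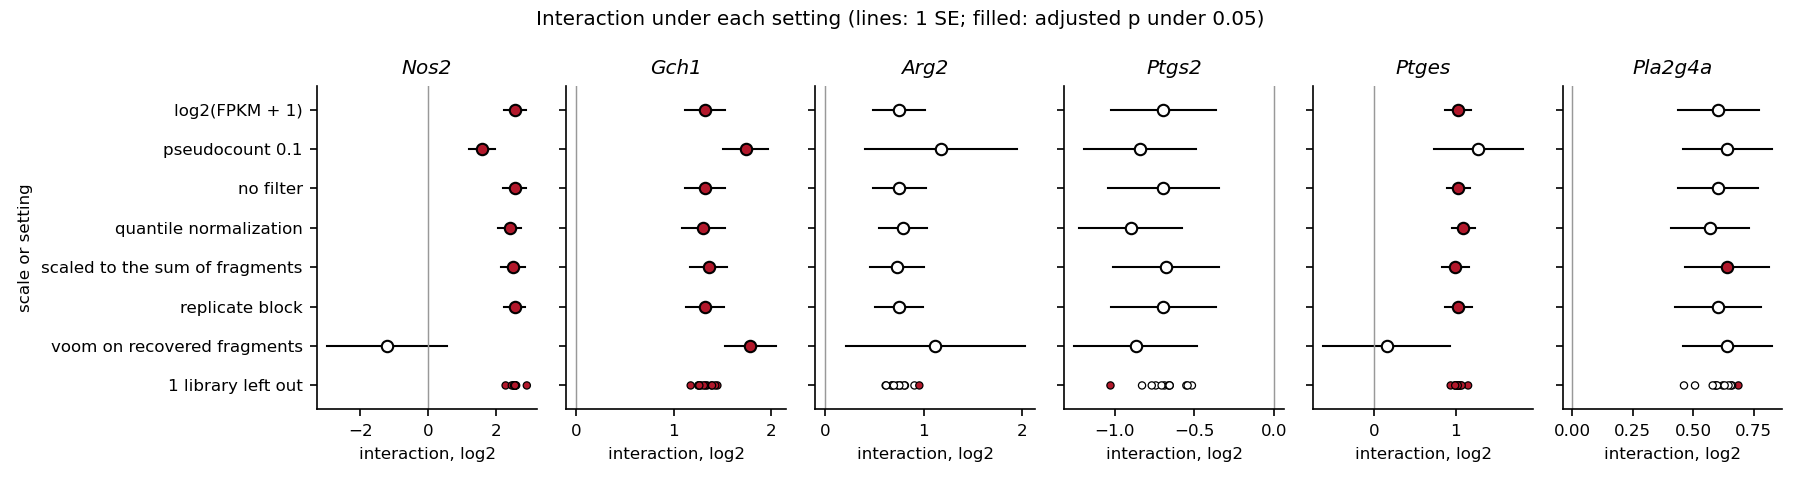
Interaction of knockdown and cytokines (horizontal axes on a log2 scale that differ between panels) for the 6 tested enzymes under each setting, with lines of 1 SE and, in the lowest row, the 12 fits that leave out 1 library. Filled points have an adjusted p under 0.05. The value of Gch1 stays between 1.17 and 1.79, and that of Nos2 goes from 2.55 to -1.22 with voom.

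The wider pathways were described by lists of named genes. Among 25 other genes of nitric oxide and arginine metabolism, 16 were tested. Knockdown raised 8 and lowered none in medium and raised 5 and lowered 1 with cytokines, the cytokines raised 4 and 3 in the 2 lines, and the interaction called 1 downward. Over all genes 25.3% rose and 21.7% fell with knockdown in medium, 23.5% and 22.1% with cytokines, and the cytokines raised 18.6% and 13.5% in the 2 lines. The interaction called 3.46% of all genes upward and 4.75% downward. The scaling matters for such modest shifts: with quantile normalization the knockdown raised 7 and lowered 2 in medium, and raised 4 and lowered 5 with cytokines. The constitutive synthases Nos1 and Nos3 were below the filter, at a mean of 0.0235 and 0.164 FPKM. Slc7a1, a cationic amino acid transporter that brings in arginine, went from 27.8 ± 0.373 to 46.5 ± 0.957 FPKM with knockdown in medium (0.72, adjusted p = 4.14e-05). With cytokines it was at 53.2 ± 5.38 and 46.9 ± 2.82 FPKM (-0.17, adjusted p = 0.102), and the interaction was -0.90 (adjusted p = 0.000852). A second arginine transporter, Slc7a2, was chosen after its values were seen. It went from 4.09 ± 0.478 to 61.9 ± 6.10 FPKM with cytokines in shRNA-NC cells (3.63, adjusted p = 3.34e-09) and from 4.08 ± 0.733 to 92.4 ± 7.80 FPKM in shRNA-Ddx5 cells (4.21, adjusted p = 7.64e-10). In stimulated cells the knockdown raised it by 0.57 (adjusted p = 0.00286). Of the most abundant tested genes of the list, Calm2 and Calm3 encode calmodulin, a subunit of the synthase, and Odc1 uses the ornithine that arginase makes. In medium the knockdown raised Calm3 by 0.86 (adjusted p = 0.000311), and the difference of Calm2 was 0.23 (adjusted p = 0.0833). Odc1 rose by 0.30 (adjusted p = 0.0395), a call that was lost in 7 of 12 fits without 1 library and under 4 of 7 other settings.

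Other routes to free arachidonate were mixed. Of 25 genes for phospholipases and the handling of arachidonate, 24 were in the table and 8 were tested. The knockdown raised 2 and lowered 3 in each medium (47% and 45.6% of all genes called). Those raised were Lpcat3 and Pla2g15 (0.36 in medium and 0.46 with cytokines for Pla2g15). Those lowered were Pnpla8, Pla2g6 and Plaat3, by larger differences than these in medium (-1.33, -0.84 and -0.69). With cytokines the 3 were at -0.90, -0.75 and -0.83. The cytokines raised 2 and lowered 1 in each line (33.8% and 27% called). No interaction was called by limma or by voom (0 of 8, with 1 at an unadjusted p under 0.05), while limma called 8.21% of all genes. Lpcat3, which puts arachidonate back into phospholipids, rose with knockdown by 0.40 in medium (adjusted p = 0.00389) and by 0.55 with cytokines (adjusted p = 0.000514), and fell by 0.42 with cytokines in shRNA-NC cells (adjusted p = 0.00438). Acsl4, which activates arachidonate, rose by 0.60 with cytokines in shRNA-Ddx5 cells (adjusted p = 0.0165), from 13.8 ± 3.95 to 20.98 ± 2.31 FPKM, a call lost without replicate 3 of the stimulated shRNA-Ddx5 cells (0.52, adjusted p = 0.0684). The 2 other abundant genes, Pla2g12a and Mboat7, had knockdown differences between -0.29 and -0.10 with adjusted p of 0.0668 or more.

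Of 12 further prostanoid synthases 11 were in the table and 6 tested. The knockdown raised 1 in medium and 2 with cytokines (25.3% and 23.5% of all genes rose), the cytokines raised 3 in each line (18.6% and 13.5%), and none fell. Akr1b3, an aldose reductase with prostaglandin F synthase activity, went from 59.2 ± 5.64 to 109.5 ± 7.29 FPKM with knockdown in medium (0.88, adjusted p = 3.32e-05) and from 105 ± 9.90 to 275 ± 11.6 FPKM with cytokines (1.39, adjusted p = 1.51e-06). Its interaction of 0.51 (adjusted p = 0.0408) was lost in 10 of 12 fits without 1 library. Ptges3, a cochaperone also described as a cytosolic prostaglandin E synthase, was at group means of 149 to 187 FPKM with no call for the knockdown. The synthases of prostaglandin D2 and thromboxane, Ptgds, Hpgds and Tbxas1, averaged at most 0.0538 FPKM.

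Receptors and breakdown enzymes gave few measurable genes. Of 10 genes listed with the prostanoid receptors 1 was tested, and it is Ptgfrn, a regulator that binds the F receptor and not a receptor itself. Ptgfrn rose by 0.64 with knockdown in medium (adjusted p = 9.44e-05) and fell by 0.70 with cytokines in shRNA-Ddx5 cells (adjusted p = 6.01e-05). The E2 receptor genes Ptger1, Ptger2, Ptger3 and Ptger4 averaged 0.250, 0.00918, 0.00212 and 0.113 FPKM. Of 6 genes for transport and breakdown 5 were in the table and 3 tested, and all 3 rose with knockdown in medium, where 25.3% of all genes rose: Abcc4, an exporter, by 0.43 (adjusted p = 0.00894), Ptgr2 by 0.47 (adjusted p = 0.000699) and Ptgr1 by 0.33 (adjusted p = 0.0210), both reductases of prostaglandin metabolites. The call of Ptgr1 was lost in 3 of 12 fits without 1 library and under 2 of 7 other settings (scaled to the sum of fragments, and only the libraries compared). With cytokines the knockdown raised Ptgr1 and Ptgr2 and the difference of Abcc4 was 0.26 (adjusted p = 0.0777). Of 13 genes of the lipoxygenase branch only Lta4h, which makes leukotriene B4, was tested. Its knockdown differences were 0.072 and 0.094, and it fell with cytokines by 0.37 in shRNA-NC (adjusted p = 0.00492) and 0.35 in shRNA-Ddx5 cells (adjusted p = 0.00824).

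Transcription factors known to bind the Nos2 or Ptgs2 genes were measured as a list of 27, of which 26 were tested. The cytokines raised 18 and lowered 2 in shRNA-NC cells and raised 19 and lowered 2 in shRNA-Ddx5 cells, against 18.6% of all genes raised and 15.2% lowered in the first and 13.5% each in the second. The knockdown raised 6 and lowered 6 in medium and raised 8 and lowered 7 with cytokines, near the shares of all genes in medium (25.3% and 21.7%) and set against 23.5% and 22.1% with cytokines. The interaction called 5 upward (Relb, Cebpb, Irf1 and Stat3 among them) and 2 downward (Nfkbiz and Egr1). Over all genes it called 3.46% upward and 4.75% downward. The list moved in both directions, with a median knockdown difference of -0.0049 with cytokines.

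Cebpb, a factor that binds C/EBP sites, went from 38.7 ± 8.91 to 30.7 ± 5.00 FPKM with knockdown in medium (-0.31, adjusted p = 0.219) and from 103 ± 24.9 to 269.7 ± 19.3 FPKM with cytokines (1.40, adjusted p = 0.000184). Its interaction was 1.72 (adjusted p = 0.00380). Cebpd, a second such factor that was chosen after its values were seen, went from 0.753 ± 0.194 to 3.75 ± 0.528 FPKM in medium (1.44, adjusted p = 0.00152) and from 19.3 ± 9.79 to 104 ± 6.12 FPKM with cytokines (2.49, adjusted p = 3.64e-05). Irf1, an interferon regulatory factor with a known role at Nos2, rose with knockdown by 1.23 with cytokines (adjusted p = 2.07e-05) and was at 0.19 in medium (adjusted p = 0.253). Stat3, which acts downstream of cytokine receptors, rose with knockdown in both media, by 0.66 in medium and by 1.503 with cytokines. Its interaction of 0.84 (adjusted p = 0.0300) was lost in 9 of 12 fits without 1 library.

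The immediate early factor Egr1 moved most strongly the other way. It went from 2.69 ± 1.30 to 59.1 ± 8.46 FPKM with cytokines in shRNA-NC cells (4.09, adjusted p = 2.54e-07) and was at 1.40 ± 0.0892 and 2.09 ± 0.432 FPKM in shRNA-Ddx5 cells (0.35, adjusted p = 0.300). The interaction was -3.74 (adjusted p = 0.000112). The NF-kB subunit gene Rela and the inhibitor Nfkbia rose with cytokines in both lines, Rela by 1.02 and 0.90 and Nfkbia by 3.19 and 2.87. With cytokines their knockdown differences were -0.25 (adjusted p = 0.158) and -0.08 (adjusted p = 0.479). Relb, a subunit of the noncanonical NF-kB pathway, had an interaction of 0.94 (adjusted p = 0.00594), and Nfkbiz, a nuclear cofactor of NF-kB, one of -0.76 (adjusted p = 0.0334) that was lost in 7 of 12 fits without 1 library. Junb, an AP-1 subunit, rose with cytokines by 2.66 and 2.47, and its knockdown differences were -0.08 and -0.27.

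RNA-binding proteins known to act on the Nos2 or Ptgs2 messages made up a list of 16, of which 15 were tested. The knockdown raised 3 and lowered 4 in medium and raised 2 and lowered 2 with cytokines (47% and 45.6% of all genes called). The cytokines raised 7 and 4 in the 2 lines (18.6% and 13.5% of all genes rose). No interaction was called by limma or by voom (0 of 15, with 6 at an unadjusted p under 0.05), while limma called 8.21% of all genes. Quantile normalization called 2 upward. With quantile normalization the knockdown in medium raised none and lowered 5, so the direction of the small changes in this list rests on the scaling. Of its most abundant genes, Hnrnpa1 fell by 0.45 with knockdown in medium (adjusted p = 0.00660), Rbm3 and Hnrnpa2b1 had no call, and Ptbp1, the polypyrimidine tract binding protein, had a difference of 0.33 (adjusted p = 0.0130) in medium, a call lost with quantile normalization.

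**Figure D5:**
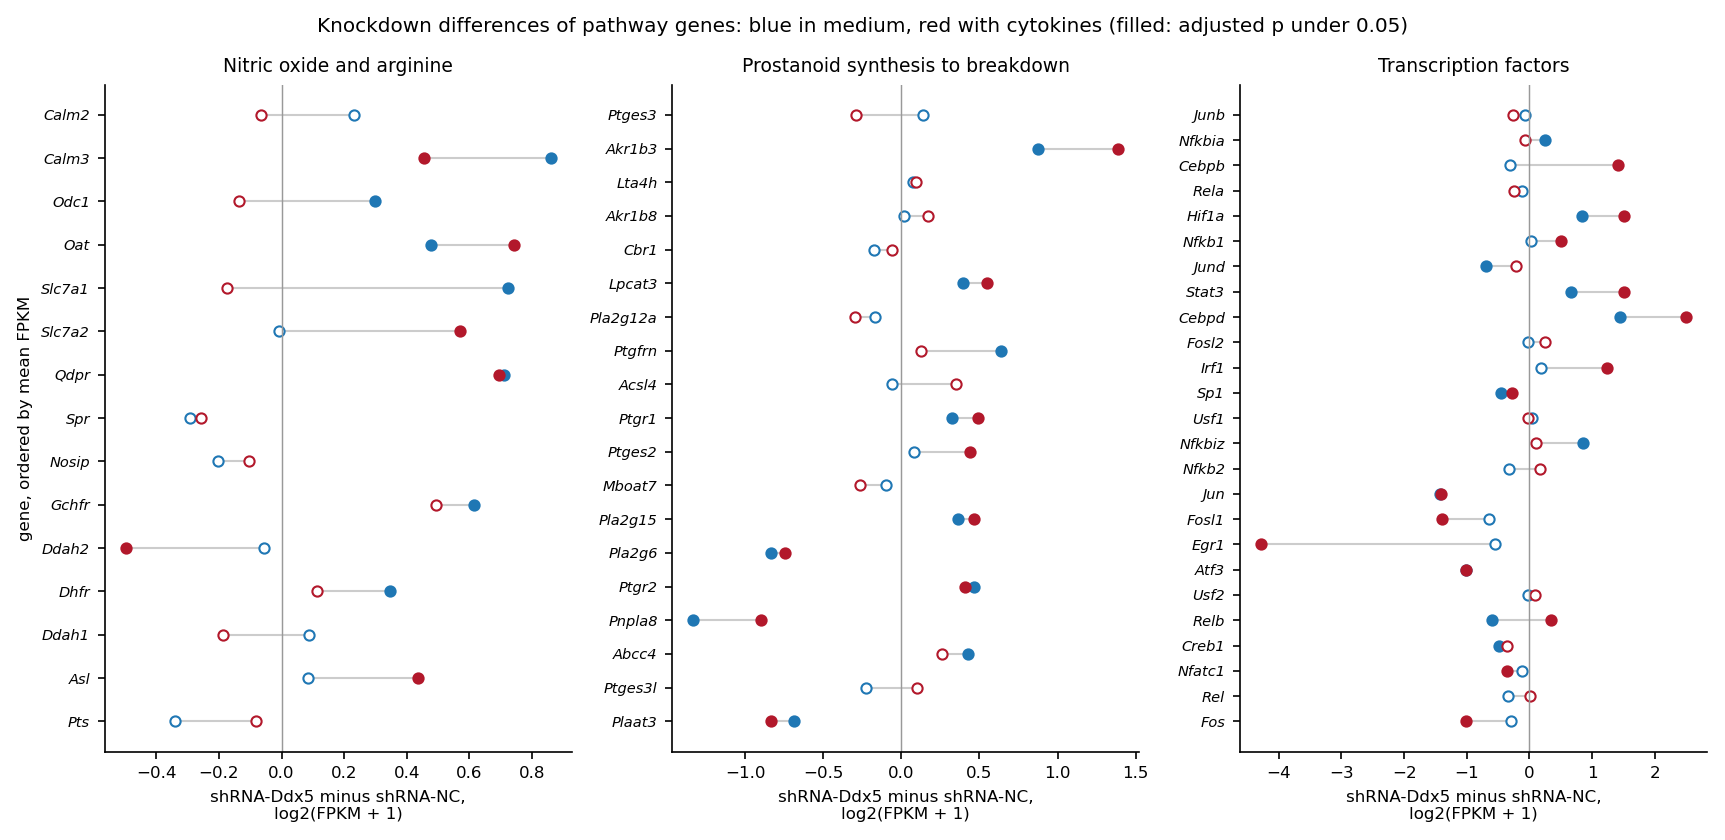
Knockdown differences (shRNA-Ddx5 minus shRNA-NC, log2 of FPKM + 1) of tested genes of the nitric oxide and arginine list, the prostanoid, phospholipase and lipoxygenase lists and the transcription factors, ordered by mean FPKM. Blue points are in medium and red points with cytokines, filled where the adjusted p is under 0.05. Egr1 stands out at -4.28 and Cebpd at 2.49 with cytokines.

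Most tested fibroblast markers rose with the knockdown beside these genes, 6 of 9 in medium (25.3% of all genes rose) and 8 of 9 with cytokines (23.5%). In medium S100a4 (-0.15, adjusted p = 0.566), Pdgfra (-0.055, adjusted p = 0.751) and Pdgfrb (0.15, adjusted p = 0.502) did not pass, and with cytokines S100a4 (0.21, adjusted p = 0.425) did not. The 11 markers, 10 of which reached 1 FPKM, summed to 1885 to 2623 FPKM in shRNA-NC and 3466 to 4093 FPKM in shRNA-Ddx5 cells in medium, and to 1638 to 2082 and 3369 to 3800 FPKM with cytokines. Of 10 endothelial markers, a cell type rich in Ptgis, 5 were at 0 in all libraries and the sum was at most 3.78 FPKM. The part of the fibroblast shift in the enzymes' values was not tested.

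Genes with the most similar levels over the 12 libraries were listed for each tested member by Pearson's r of log2(FPKM + 1). This is a description, since all values share libraries and denominators. For Nos2 they were Gbp5 (0.999), a guanylate-binding protein, Ccl20 (0.998), a chemokine, and Prss23 (0.997), a protease. Ccl20 averaged 0, 0.0922, 22.1 and 85.7 FPKM in shRNA-NC and shRNA-Ddx5 cells in medium and then with cytokines. For Ptgs2 they were Cd44 (0.992), the hyaluronan receptor, Csf2 (0.991), a colony-stimulating factor, and Nfkbiz (0.989), and Cd44 averaged 25.2, 29.6, 129 and 105 FPKM in that order of groups. For Gch1 they were Ctsl (0.978), a lysosomal protease, Rad52 (0.977), a DNA repair factor, and Snx10 (0.970), a sorting nexin. For Ptges they were Trim30a, Abcc3 and Serpina3i (0.993, 0.993 and 0.992), for Pla2g4a Angpt1, Tnfsf15 and Hs6st2 (0.981, 0.972 and 0.965), and for Arg2 Gm46289, Dcn and Hif1a (0.965, 0.960 and 0.957). Among the members themselves r was 0.935 for Ptges and Pla2g4a and 0.932 for Ptges and Arg2, against 0.643 for Ptges and Ptgs2. Nos2 and Ptgs2 had an r of 0.946, and Gch1 and Arg2 one of 0.0344.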

How the data were processed

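RNA-seq libraries of ATDC5 cells (2 × 150 nt reads from 1 µg RNA) were grouped by the titles and treatments in their labels. Per the labels' processing notes the tools were HISAT2 2.0.5, featureCounts 1.5.0-p3 and DESeq2 1.20.0 with mm10. The coordinates in the table are those of GRCm39. The authors deposited FPKM values, in which each gene's fragments are divided by its length and by a total per library of 0.957 to 1.08 times the sum of fragments on genes. Multiplied by gene length, 100% of the values fell on whole numbers of 1 unit in each library (within 0.01 fragments), and these numbers are the fragments used here.

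FPKM was analysed as log2(FPKM + 1) with limma 3.58.1 (R 4.3.3; lmFit and eBayes with trend), 4 group means, and Benjamini-Hochberg adjustment over 12368 genes with at least 1 FPKM in at least 3 of 12 libraries. The authors tested counts with DESeq2, which was not run here. Counting intervals of pooled ratios (95%) are exact and conditional on the total, and they leave out the spread between libraries. Python 3.11.15 was used for ratios, promoters and figures.

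Alternatives tried were no filter, a pseudocount of 0.1, quantile normalization, scaling to the sum of fragments, voom on the fragments, the replicate number as a block, only the libraries compared, and each library left out. Ptgs1 was fitted with no filter, a choice made after its values were seen. Members and lists were chosen with earlier results of these data known. From each list other than the cell markers, the tested genes named were at most the 4 of highest mean FPKM and those past the interaction threshold. Slc7a2, Cebpd, Pla2g15, Pnpla8, Pla2g6 and Plaat3 were named outside this rule, after their values were seen. For each tested member the 3 genes of highest r were named. Some named genes of the lists are not reported here, although the counts include them.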

Additional observations from a re-analysis of the deposited data

Results flagged for a closer look

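A set of 3 enzymes passed the threshold in limma's interaction of knockdown and cytokines, and for 2 of them, Nos2 and Ptges, this depended on the scale. For Nos2 the interaction was 2.55 on the log2(FPKM + 1) scale (adjusted p = 0.000847), for Gch1 it was 1.32 (adjusted p = 0.00270) and for Ptges 1.03 (adjusted p = 0.00313). All 3 kept their direction in each of the 12 fits that leave out 1 library, with ranges of 2.28 to 2.90, 1.17 to 1.45 and 0.94 to 1.15. Those fits vary the libraries and not the scale, which understates changes at low levels such as those of Nos2 and Ptges in medium. With voom the value of Nos2 turned negative, and neither Nos2 nor Ptges passed. Ptges did not pass with a pseudocount of 0.1 either. It entered the test only through stimulated shRNA-Ddx5 cells, the group that its interaction marks as high. The value of Gch1 stayed past the threshold under each of the other 6 settings tried.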

How the results depend on the processing

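For the knockdown in medium, 1 of 6 tested enzymes was called. The count was 2 of 10 with no filter, 5 with a pseudocount of 0.1, 2 with quantile normalization, 3 with voom and 3 with only the libraries compared, and 1 to 4 when 1 library was left out. The interaction called 3, with 4 when scaled to the sum of fragments, 2 with a pseudocount of 0.1 and 1 with voom. With voom the value of Nos2 was -1.22. Leaving out 1 library gave 0.054 at the highest and -0.46 at the lowest for Ptgs2 with cytokines (knockdown), and -0.049 to 0.29 for Arg2 (cytokines in shRNA-NC cells). With the other counts (5, 3 and 6 called) no alternative differed by more than 1.5 times. Without the filter the fit also passed Ass1 and Ptgis with cytokines, at totals of at most 4 fragments against 0, which are not reported as changes. Of 564 alternative values of single enzymes 530 kept their direction and side of the threshold, 26 newly passed it, 4 no longer passed it and 4 changed sign.

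Over all group pairs, replicate numbers did not pair the libraries. Of 18 pairs with the same number 4 deviated together with r above 0.1 (mean -0.045), against 13 of 36 pairs with different numbers (mean 0.0216). Single group pairs differed. Between the 2 lines in medium r was 0.448, 0.043 and 0.313 for the same number and -0.378 to 0.19 for different numbers. Between shRNA-NC cells in medium and with cytokines it was -0.368, 0.123 and -0.290 for the same number. With the replicate number as a block, 2 of 6 were called for the knockdown in medium, since Arg2 passed (adjusted p = 0.0466), and no other call of the 6 enzymes changed. Among the named list genes the interaction calls of Akr1b3, Nfkbiz and Ptgfrn did not pass with the block. The share of upward calls among all genes moved with the scaling, from 53.8% to 42.5% for the knockdown in medium when scaled to the sum of fragments, from 55.1% to 43.4% (quantile) and 42.2% (sum) for the cytokines in shRNA-NC cells, and from 50.0% to 39.0% (quantile) in shRNA-Ddx5 cells. Depth limits Ass1, Arg1 and Ptgis, which had at most 6 fragments in a library, and the Nos2 ratios against unstimulated shRNA-NC cells, which rest on 1 fragment.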
